A study of Mus musculus with 12 samples.

Results

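Krüppel-like factors (KLF) are transcription factors that bind GC-rich and CACCC sequences through a run of C2H2 zinc fingers at the C terminus, while their N-terminal parts recruit either coactivators or corepressors. In the brain, members act in axon growth (Klf6 and Klf7 promote it and Klf4 and Klf9 limit it in rodent retinal ganglion cells), in the response to thyroid hormone and glucocorticoids (Klf9, Klf13, Klf15) and in the blood vessel wall (Klf2, Klf4). The 10 genes Klf2, Klf3, Klf4, Klf6, Klf7, Klf9, Klf10, Klf13, Klf15 and Klf16 were read by symbol from a table of 41743 genes, and each was found once.

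RNA-seq of polyadenylated RNA was run on the hippocampus of C57Bl/6 males at an age of 12 weeks. The toxicant group received subcutaneous injections on weekdays for 2 weeks of a mixture of pyridostigmine bromide at 2.5 mg/kg (a reversible cholinesterase inhibitor), chlorpyrifos at 12.5 mg/kg (an organophosphate insecticide) and DEET at 7.5 mg/kg (an insect repellent), as a model of Gulf War exposure. The control group received vehicle. Hippocampi were taken when the exposure ended, from 6 toxicant and 6 control animals. The columns of controls 4 and 5 held identical values in all 41743 genes and were counted once, as control 4-5, which left 6 toxicant and 5 control libraries.

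Values are RPKM, the reads of a gene scaled to the length of its model and to the reads of the library. The reads behind them numbered 21.5 to 28.4 M in toxicant and 24.9 to 34.9 M in control libraries, and 76.8% to 83.8% of the reads lay on genes in toxicant libraries, against 78.4% to 89.5% in control libraries. Control 2, at 78.4%, and control 4-5, at 83.1%, lay within the range of the toxicant libraries, and the other controls above it. The share of reads on genes sums, over genes, the reads recovered from RPKM and exon length. Where the other reads lay, in introns or between genes, was not examined. The 7 neuron markers summed to 843 to 1014 RPKM in toxicant and 931 to 1143 RPKM in control libraries, and the 5 leukocyte markers to at most 0.332 and 0.425 RPKM. The 5 choroid plexus markers, a tissue next to the hippocampus, ranged from 14.7 to 1791 RPKM in toxicant and from 16.3 to 2874 RPKM in control libraries.

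All 10 members were above the filter on low values (a mean of 0.5 RPKM) and were tested among 13493 genes by limma on log2(RPKM + 0.5), a scale on which fold changes understate the change of low genes. After Benjamini-Hochberg adjustment 0 of 10 members passed the threshold of 0.05, as did 0.0% of all genes tested, and limma voom on the reads recovered from the RPKM steps also called 0. At an unadjusted p under 0.05, 1 member of 10 differed, where 20.3% of all genes did. That member was Klf2, lower in toxicant hippocampi as were 17.0% of all genes, and 0 members were higher, where 3.33% of all genes were. A negative log2 fold change was found for 8 of 10 members and 70.0% of all genes. The groups overlapped for each of the 10 members, while 2.03% of all genes had every toxicant library below every control and 0.111% every one above. With limma's sample weights 6 members passed the adjusted threshold, in a fit that called 49.6% of all genes lower and 21.2% higher. The median log2 fold change of the members was -0.11, that of all genes was -0.11 as well, and under median-ratio scaling the members' median turned to 0.0051 and that of all genes to 0.0014. The members' fold changes are therefore also given relative to the all-gene median.

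**Figure D1:**
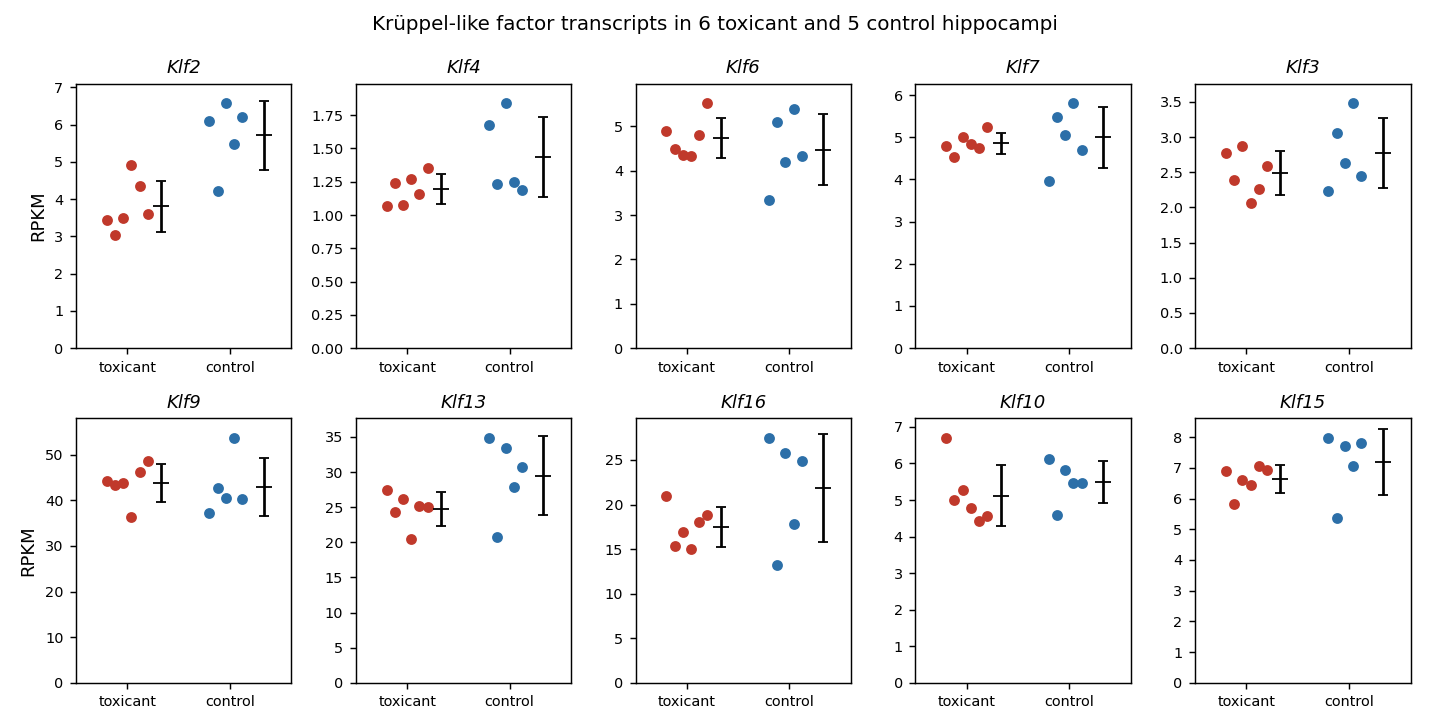
RPKM of the 10 members in each library (vertical axes start at 0 and differ between panels), with toxicant libraries in red on the left and control libraries in blue on the right of each panel; black bars give the mean and SD. Klf2 has 4 of 6 toxicant libraries below the lowest control, and the groups overlap in every panel.

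By level, the family spanned 33.2-fold. Klf9 came first with a mean of 43.3 RPKM over the 11 libraries, above 94.4% of the genes tested, and was followed by Klf13 at 26.9 RPKM and Klf16 at 19.5 RPKM. Klf15 (6.88 RPKM), Klf10 (5.29 RPKM), Klf7 (4.92 RPKM), Klf2 (4.67 RPKM) and Klf6 (4.62 RPKM) formed the middle, and Klf3 (2.62 RPKM) and Klf4 (1.31 RPKM) the low end. Klf9 was above Klf13 and Klf16 above Klf15 in 11 of 11 libraries with no overlap of their ranges. The order of the middle group was not fixed, since Klf10 was above Klf7 in 6, Klf7 above Klf2 in 7 and Klf2 above Klf6 in 5 of 11 libraries. The reads behind a member's value ranged from 70 in the lowest library for Klf4 to 8064 in the highest for Klf13.

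Klf2 is an activator best known from endothelial cells, where blood flow induces it through the kinase ERK5 and MEF2 factors, and it also keeps lymphocytes quiescent. The gene (ENSMUSG00000055148) spans chromosome 8 from 72319033 to 72321656 on the plus strand in GRCm38 (GENCODE M21). The 250 bases before its RefSeq start are shown beside those of Klf4, the other member known from endothelium, and of Klf13 and Klf9, the most abundant members, with every GC box (GGGCGG), every CRE core (TGACG) and every MEF2 motif, on either strand, in capitals. The sequences are from RefSeq on GRCm38.p6. They lie at chr8:72318812-72319061 (plus strand) for Klf2, chr4:55532476-55532725 (minus strand) for Klf4, chr7:63938916-63939165 (minus strand) for Klf13 and chr19:23140976-23141225 (plus strand) for Klf9. In GENCODE M21 the Klf2 gene starts 29 bases earlier than in RefSeq.
Klf2: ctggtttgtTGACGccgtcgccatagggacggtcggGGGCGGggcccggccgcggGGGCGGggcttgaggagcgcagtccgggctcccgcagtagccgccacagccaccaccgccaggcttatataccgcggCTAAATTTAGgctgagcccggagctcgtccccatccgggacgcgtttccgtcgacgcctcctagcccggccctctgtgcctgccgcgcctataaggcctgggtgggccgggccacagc
Klf4: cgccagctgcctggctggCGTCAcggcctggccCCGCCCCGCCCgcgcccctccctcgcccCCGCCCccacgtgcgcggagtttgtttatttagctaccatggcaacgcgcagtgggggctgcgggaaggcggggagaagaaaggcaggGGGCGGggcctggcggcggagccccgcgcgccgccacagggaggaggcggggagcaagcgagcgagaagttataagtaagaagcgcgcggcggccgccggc
Klf13: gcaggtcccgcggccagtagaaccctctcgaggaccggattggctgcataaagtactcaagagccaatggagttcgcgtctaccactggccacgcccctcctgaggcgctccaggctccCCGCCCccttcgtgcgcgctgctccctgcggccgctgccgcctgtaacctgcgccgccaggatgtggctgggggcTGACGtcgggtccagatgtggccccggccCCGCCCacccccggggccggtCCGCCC
Klf9: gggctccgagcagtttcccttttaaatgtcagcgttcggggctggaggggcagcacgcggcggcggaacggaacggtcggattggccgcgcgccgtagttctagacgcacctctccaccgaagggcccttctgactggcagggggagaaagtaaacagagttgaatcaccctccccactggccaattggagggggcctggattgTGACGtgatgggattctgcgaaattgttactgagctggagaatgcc

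RefSeq windows were found for 8 of the 10 members, all but Klf10 and Klf16. In GENCODE M21 all 250 bases of the Klf7 window, 133 of the Klf3 window and 7 of the Klf6 window also lie inside the gene. A GC box was present in 7 of the 8 (all but Klf9), against 32.7% of the 32851 windows of the same length in the table. The members' windows were 59.2% to 78.4% GC, against a median of 52.4% over all windows. A CACCC box (CACCC) was in 6 of 8, against 52.0%. The MEF2 motif was found in Klf2 alone, 118 bases before the start, and in 2.92% of all windows. The CRE core was in 5 of 8 members (Klf2, Klf4, Klf9, Klf13, Klf15), against 17.8% of windows. TATAA was in 2 (Klf2 and Klf4), against 22.8%, CCAAT in 4 (Klf6, Klf9, Klf13, Klf15), against 33.9%, and the E-box CACGTG in 3 (Klf4, Klf6, Klf15), against 6.02%. The full CRE (TGACGTCA, which contains the core), the CArG box bound by serum response factor and the palindromic glucocorticoid response element were in 0 of 8 members, and in 1.55%, 1.47% and 0.00913% of all windows. All motifs were searched on both strands, and a CACCC box can share bases with a GC box. A match describes these letters and no more.

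Klf2 was at 3.03 RPKM in the lowest, 3.54 RPKM at the median and 4.93 RPKM in the highest toxicant library, while the 5 controls were at 6.10, 4.22, 6.57, 5.48 and 6.198 RPKM. Controls 1, 3, 4-5 and 6 lay above every toxicant library, and control 2, at 4.22 RPKM, lay below toxicants 4 and 5. The means were 3.80 ± 0.697 RPKM in toxicant (SD, n = 6) and 5.71 ± 0.924 RPKM in control hippocampi (SD, n = 5), a log2 fold change of -0.53 ± 0.13 (SE; 95% interval -0.81 to -0.25; limma adjusted p = 0.170, unadjusted p = 0.00119). Relative to the all-gene median the log2 fold change was -0.42. By p, Klf2 stood at place 89 of the genes tested. Without control 2 the log2 fold change was -0.63 (limma adjusted p = 0.0227), in a comparison where 28.1% of all genes were called lower and 8.56% higher. In each of the 24 alternatives the sign was negative, with values from -0.63 to -0.39.

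Markers of other cell types were measured beside Klf2, and 0 of them passed the adjusted threshold. Of 8 endothelial markers, 8 had a negative log2 fold change (median -0.26, and -0.14 under median-ratio scaling) against 70.0% of all genes, and 6 were lower at an unadjusted p under 0.05, against 17.0% of all genes. They summed to 23.7 to 30.0 RPKM in toxicant and 29.8 to 35.5 RPKM in control libraries, and none was at 0. Claudin 5 (Cldn5), a tight junction protein, was at 14.6 ± 2.04 RPKM in toxicant and 18.2 ± 1.87 RPKM in control libraries. Klf2 minus the mean of these markers, on the log2 scale, was 0.73 ± 0.25 in toxicant and 0.99 ± 0.24 in control libraries (SD, n = 6 and 5). Of 5 red cell markers, the 4 tested had a median log2 fold change of -0.45, and the 5 summed to 70.95 to 101.6 RPKM in toxicant and 97.1 to 143 RPKM in control libraries. For the 8 microglia markers the median was -0.27. All of the tested red cell and microglia markers had a negative log2 fold change. Of the oligodendrocyte markers 6 were negative and 2 positive. Other lists were mixed. The median was -0.095 for astrocyte (4 negative, 2 positive) and -0.14 for neuron markers (5 negative, 2 positive), against -0.11 for all genes. It was -0.20 for mural (5 negative, 1 positive) and -0.26 for dentate granule cell markers (3 negative, 1 positive). The 8 oligodendrocyte markers summed to 430 to 595 RPKM in toxicant and 605 to 681 RPKM in control libraries, with no overlap. The part of these cells in the Klf2 values was not tested. In whole tissue, fewer cells of a type and less RNA per cell cannot be told apart.

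Klf4, Klf6 and Klf7, like Klf2, did not pass the adjusted threshold. Klf4, a pluripotency factor that also acts in endothelium, ranged from 1.07 to 1.35 RPKM in toxicant libraries with a median of 1.20 RPKM, and the controls were at 1.68, 1.23, 1.84, 1.25 and 1.19 RPKM. Controls 1 and 3 were above all toxicant libraries and the other controls lay among them. The log2 fold change was -0.18 ± 0.10 (SE, limma adjusted p = 0.282), or -0.068 relative to the all-gene median, and -0.11 without control 3. Klf6, which promotes axon growth, ranged from 4.33 to 5.52 RPKM (median 4.65 RPKM) in toxicant libraries, against 3.35 to 5.39 RPKM (median 4.34 RPKM) in controls. Its log2 fold change of 0.085 ± 0.11 (95% interval -0.15 to 0.32) turned to -0.0049 when the fit was adjusted for the share of reads on genes, and was 0.20 relative to the all-gene median. Klf7, an activator of the nerve growth factor receptor gene in mouse sensory neurons, spanned 4.52 to 5.24 RPKM in toxicant and 3.96 to 5.81 RPKM in control libraries, and its log2 fold change of -0.028 ± 0.088 (95% interval -0.22 to 0.16) was 0.092 under median-ratio scaling and 0.085 relative to the all-gene median. Gm26649, annotated on the opposite strand, covers 3196 exon bases of Klf7, and Gm20033 covers 404 exon bases of Klf3. Strandedness is not stated, so reads of each gene and its antisense partner may be shared.

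Klf3, which represses through the corepressor CtBP, was at 2.06 to 2.88 RPKM (median 2.49 RPKM) in toxicant libraries and at 2.24, 3.06, 2.63, 3.48 and 2.45 RPKM in controls. Toxicant 4 alone was below the lowest control. The log2 fold change was -0.12 ± 0.11 (95% interval -0.36 to 0.11), or -0.0096 relative to the all-gene median. It was -0.049 without control 4-5.

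Klf9, Klf13, Klf16 and Klf10 repress through the Sin3A corepressor. Klf9, induced by thyroid hormone and glucocorticoids and needed for the late maturation of dentate granule neurons in mice, averaged 43.7 ± 4.16 RPKM in toxicant (SD, n = 6) and 42.9 ± 6.33 RPKM in control hippocampi (SD, n = 5). The toxicant libraries ran from 36.3 to 48.6 RPKM around a median of 43.9 RPKM, within or just below the controls at 37.2, 42.6, 40.6, 53.6 and 40.3 RPKM. The log2 fold change was 0.034 ± 0.10 (95% interval -0.19 to 0.26; limma adjusted p = 0.824). It was 0.15 relative to the all-gene median, 0.17 under median-ratio scaling and 0.20 with quantile normalization. This gene spans chromosome 19 from 23141226 to 23168134.

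Klf13, a close relative of Klf9, ranged from 20.5 to 27.5 RPKM (median 25.1 RPKM) in toxicant libraries, and the controls were at 34.9, 20.8, 33.4, 27.8 and 30.7 RPKM. Control 2 lay near the bottom of the toxicant range and the other controls above the whole of it. The log2 fold change was -0.23 ± 0.13 (SE, limma adjusted p = 0.273), or -0.12 relative to the all-gene median. Klf16, which regulates dopamine receptor promoters in cultured cells, gave 15.04 to 20.9 RPKM (median 17.5 RPKM) in toxicant libraries, with controls at 27.5, 13.2, 25.8, 17.8 and 24.9 RPKM. Its controls held both the highest and the lowest library of the study, and the log2 fold change was -0.27 ± 0.17 (SE, limma adjusted p = 0.315), or -0.16 relative to the all-gene median. Both values depend on control 2. Without it the log2 fold changes were -0.35 for Klf13 (limma adjusted p = 0.0252) and -0.43 for Klf16 (limma adjusted p = 0.0289), where 28.1% of all genes were called lower and 8.56% higher. Adjusted for the share of reads on genes, the log2 fold changes of Klf13 and Klf16 turned to 0.030 and 0.12. Klf10, named for its early induction by TGF-beta, lay between 4.42 and 6.70 RPKM (median 4.90 RPKM) in toxicant and between 4.60 and 6.12 RPKM (median 5.48 RPKM) in control libraries, and its log2 fold change of -0.099 ± 0.10 was 0.023 under median-ratio scaling and 0.014 relative to the all-gene median. Without toxicant 1 it was -0.17.

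Klf15, a glucocorticoid-induced regulator of amino acid and lipid metabolism, was at 5.82 to 7.07 RPKM (median 6.76 RPKM) in toxicant libraries and at 7.97, 5.36, 7.71, 7.05 and 7.79 RPKM in controls. Every toxicant library was below the control median of 7.71 RPKM, and control 2 was below them all. The log2 fold change was -0.096 ± 0.098 (95% interval -0.31 to 0.12; limma adjusted p = 0.493) and turned to 0.029 under median-ratio scaling and 0.017 relative to the all-gene median. Without control 2 it was -0.19 (limma adjusted p = 0.0510), and without control 1 it was -0.058.

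The members were also divided into 2 sets by the base composition of their transcripts, a division made after the values were seen. The transcripts of Klf2 (61.6% GC), Klf16 (60.4%), Klf13 (55.5%), Klf15 (54.9%) and Klf4 (54.6%) lie above the 50% median of the genes tested, and those of Klf9 (47.5%), Klf10 (46.9%), Klf3 (45.7%), Klf7 (45.3%) and Klf6 (42.4%) below it. On the log2 scale, the GC-rich set averaged -0.24 to -0.055 around its own mean in the 6 toxicant libraries, and 0.36, -0.26, 0.36, 0.045 and 0.22 in the controls. The GC-poor set averaged -0.15 to 0.099 in the toxicant libraries and -0.17, 0.060, -0.0016, 0.23 and -0.048 in the controls. Controls 1, 3 and 6, where 89.5%, 88.4% and 87.4% of reads lay on genes, were the high ones for the GC-rich average. Control 2 was lower on that average than every toxicant library. Not every member followed the average. In control 2, Klf2 (-0.093) lay above toxicants 1, 2, 3 and 6, and Klf4 (-0.050) above toxicants 1, 3 and 5. Klf13 there lay above toxicant 4. In control 6, Klf4 was at -0.088, below its own mean. The share of reads on genes was 80.8% ± 2.68 in toxicant and 85.4% ± 4.58 in control libraries (SD, n = 6 and 5).

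Adjusted for that share, the log2 fold changes were -0.42 for Klf2 and -0.099 for Klf4, and 0.030, 0.084 and 0.12 for Klf13, Klf15 and Klf16. With each library's trend on GC content removed, a step chosen after the data were seen, they were -0.39 for Klf2, -0.011 for Klf4, -0.061 for Klf13 and -0.12 for Klf16, and Klf15 turned to 0.074. In both fits 0 members passed the adjusted threshold. The share differed between the groups, so the share and the exposure cannot be told apart in the fit adjusted for it. Removing the GC trend left an SD between controls of 0.12 for Klf13, against 0.29 in the deposited values (log2 scale). For Klf16 the SD was 0.20, against 0.44 deposited, and for Klf2 it was 0.092, against 0.23. Klf10 went the other way, with 0.17 against 0.14. Between toxicant libraries the SD for Klf2 was 0.24, against 0.23 deposited, for Klf6 it was 0.17, against 0.12, and for Klf13 it was 0.11, against 0.14.

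**Figure D2:**
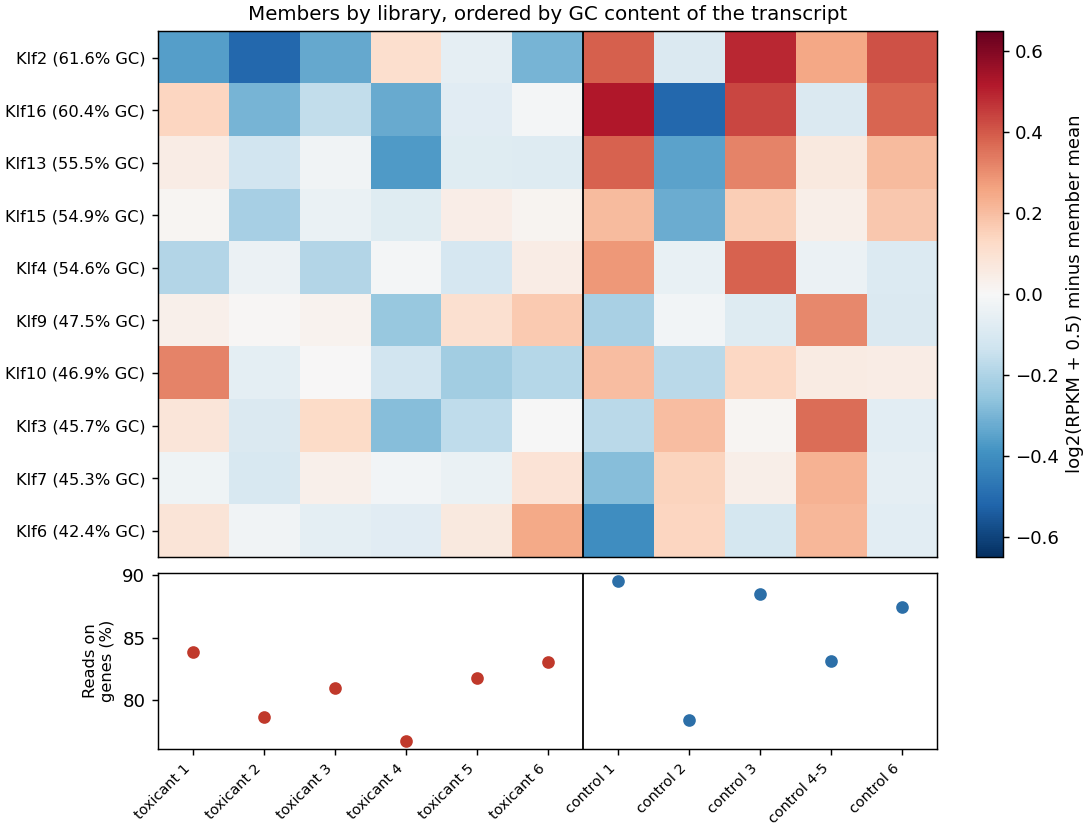
Upper panel, log2(RPKM + 0.5) of each member (rows, ordered by the GC content of the longest transcript) minus its mean over the 11 libraries, in toxicant (left) and control libraries (right); lower panel, the percentage of reads on genes in the same libraries, on an axis that does not start at 0. Controls 1, 3 and 6 are red in most of the upper rows and hold 87.4% to 89.5% of reads on genes.

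**Figure D3:**
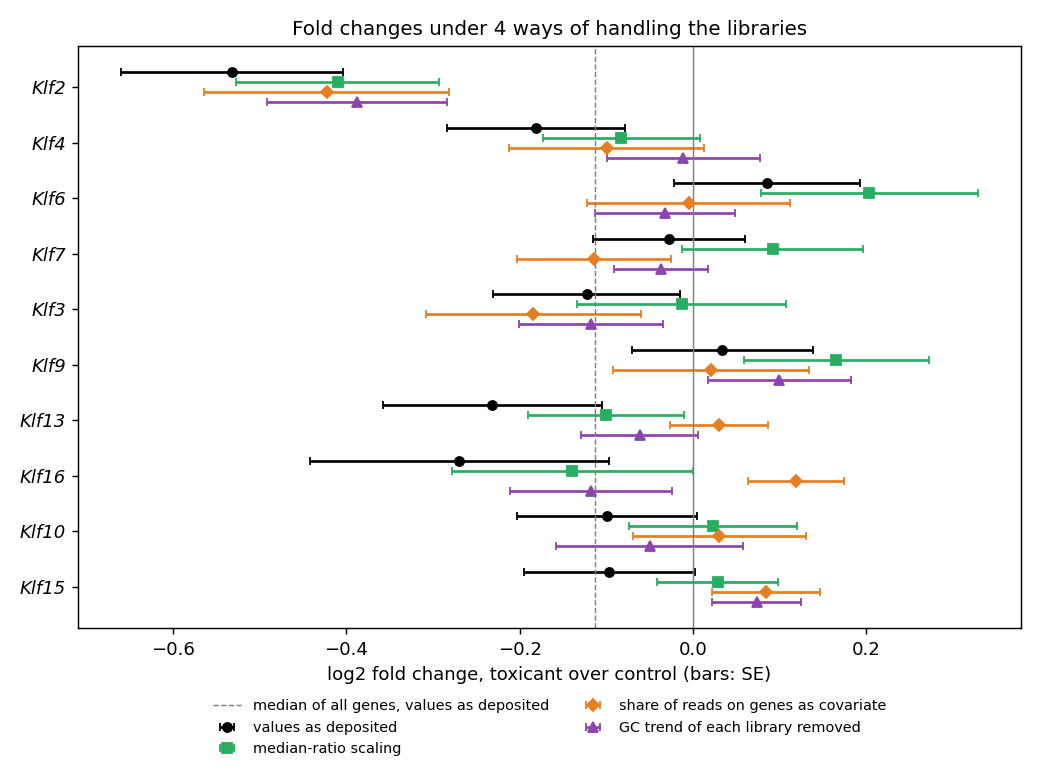
Log2 fold change, toxicant over control, of each member (rows) with its SE, for the values as deposited and for 3 other ways of handling the libraries; the dashed line is the all-gene median of -0.11. Klf2 lies between -0.53 and -0.39 in all 4, while Klf13, Klf15 and Klf16 lie on both sides of 0.

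The SD on the log2 scale was smaller between toxicant libraries than between controls for 9 of the 10 members, and for 79.4% of all genes. Klf10 was the exception. The profiles of Klf6 and Klf7 were the most alike among the 45 pairs (root mean square distance of 0.0985 on the log2 scale over 11 libraries), and those of Klf2 and Klf6 the least alike (0.44). Of the 12281 named genes tested, the nearest to Klf2 were Hbb-bs (beta globin, which may share reads with the near-identical Hbb-bt) at 0.13, Serpinf1 (a secreted anti-angiogenic serpin) at 0.14 and Plekhf1 (an endosomal protein) at 0.145. Hbb-bs was at 32.2 ± 3.57 RPKM in toxicant and 44.9 ± 6.85 RPKM in control libraries. It was picked by its likeness to Klf2 over both groups, so a lower toxicant mean comes with the choice. Genes lay much nearer to Klf13: Smpd3 (a neutral sphingomyelinase) at 0.0370, Zfp251 (a zinc finger protein) at 0.0423 and Dennd2a (a Rab exchange factor) at 0.0430.

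Other members of the KLF and SP families share the zinc finger domain. Of 16, 9 were above the filter, of which 6 had a negative and 3 a positive log2 fold change, and 0 passed the adjusted threshold. At an unadjusted p under 0.05, where 17.0% of all genes were lower, 1 was lower, Sp2, at 3.37 ± 0.157 RPKM in toxicant and 4.496 ± 0.977 RPKM in control hippocampi (log2 fold change -0.35 ± 0.11, limma adjusted p = 0.207). Sp3, which competes with Sp1 for GC boxes, had a log2 fold change of 0.30 ± 0.14 and Klf11, a Sin3A-binding relative of Klf10, of -0.20 ± 0.10 (limma adjusted p = 0.250 and 0.257). Adjusted for the share of reads on genes, Sp3 was at 0.030. Klf12 and Klf5 were at 1.90 ± 0.228 and 1.17 ± 0.378 RPKM in toxicant libraries, and at 1.63 ± 0.499 and 1.42 ± 0.233 RPKM in controls. The erythroid factor Klf1 was near 0, at 0.0778 RPKM in toxicant and 0.0899 RPKM in control libraries.

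Among genes upstream of the members, 0 passed the adjusted threshold in any list. Of 11 genes of the MEF2, ERK5 and CCM pathway, which governs Klf2 and Klf4 in endothelium, 4 were lower at an unadjusted p under 0.05 (background 17.0%) and 0 higher. They included Map2k5, which phosphorylates ERK5 (log2 fold change -0.30 ± 0.10), the factor Mef2d (-0.31 ± 0.11) and the kinase Map3k3 (-0.20 ± 0.07). Of the 11, 7 had a negative and 4 a positive log2 fold change. The list's median was -0.13, against -0.11 for all genes, and -0.0065 under median-ratio scaling. Of 8 tested endothelial targets of Klf2 and Klf4, among them Tek of the marker list, 8 had a negative log2 fold change (70.0% of all genes) and 3 an unadjusted p under 0.05 (17.0% lower over all genes). The lowest was the water channel Aqp1 at -0.54 ± 0.69, which was at 4.501 RPKM in toxicant 2 and 6.545 RPKM in control 3, the libraries with the highest choroid plexus sums, and at most 0.885 RPKM elsewhere. Tek, an angiopoietin receptor, was at 1.32 ± 0.127 RPKM in toxicant and 1.89 ± 0.238 RPKM in control libraries with no overlap. It was the 1 such gene of the 8, where 2.03% of all genes had every toxicant library below every control. Nos3, the endothelial nitric oxide synthase, and Vcam1, an adhesion molecule, had log2 fold changes of -0.20 ± 0.07 and -0.25 ± 0.10. Edn1, which Klf2 represses in cultured endothelium, had one of -0.26 ± 0.15. The list was not divided by whether Klf2 raises or lowers a target, so the shared sign is not a readout of Klf2. Over the 24 alternatives the log2 fold change of Nos3 ran from -0.25 to -0.039. In the TGF-beta list upstream of Klf10, 3 of 10 were lower at an unadjusted p under 0.05, against 17.0% of all genes. These were the receptor Tgfbr2 at -0.38 ± 0.09, Smad4 at -0.27 ± 0.10 and the inhibitor Smad7 at -0.28 ± 0.12. Of all 10, 7 had a negative and 3 a positive log2 fold change. Their median was -0.15, against -0.11 for all genes, and -0.048 under median-ratio scaling.

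For the hormone-responsive members, 1 of 6 nuclear receptors was higher and 0 lower at an unadjusted p under 0.05, against 3.33% and 17.0% of all genes. It was the thyroid hormone receptor Thrb, at 3.98 ± 0.512 RPKM in toxicant and 3.17 ± 0.451 RPKM in control hippocampi (log2 fold change 0.29 ± 0.10, limma adjusted p = 0.217). The mineralocorticoid receptor Nr3c2 had a log2 fold change of -0.17 ± 0.09 and Thra one of -0.20 ± 0.16, which turned to 0.017 with quantile normalization. Of 12 glucocorticoid-induced genes, 4 were lower and 1 higher at an unadjusted p under 0.05, against the same 17.0% and 3.33%, and their median log2 fold change was -0.11, as for all genes. Among them were Ddit4, an inhibitor of mTOR signalling, at -0.44 ± 0.14, the clock gene Per1 at -0.29 ± 0.10, and Plin4, a lipid droplet protein, at 0.44 ± 0.14. Of 12 clock genes, 3 were lower and 1 higher, against the same shares, with log2 fold changes of -0.25 ± 0.08 for Tef, -0.21 ± 0.07 for Arntl and 0.48 ± 0.20 for Clock. Over the 24 alternatives the log2 fold change of Clock ran from 0.043 to 0.69.

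Cofactors and reported targets were tested in the same fit. The 13 cofactors and ubiquitin ligases had a median log2 fold change of -0.035, against -0.11 for all genes, with 1 lower at an unadjusted p under 0.05, where 17.0% of all genes were (the deacetylase Hdac1, -0.27 ± 0.08). Wwp1, a ubiquitin ligase, was at 0.35 ± 0.19 and the corepressor Sin3a at -0.12 ± 0.07. The 5 tested metabolic targets of Klf15 had a median of -0.10 and 0 at an unadjusted p under 0.05, with log2 fold changes of -0.17 ± 0.11 for Kcnip2, -0.12 ± 0.08 for Prodh and -0.10 ± 0.09 for Bcat2. The last turned to 0.0058 under median-ratio scaling. Of the 7 tested genes of axon growth and cell cycle, 1 was lower at an unadjusted p under 0.05, where 17.0% of all genes were. It was the cell cycle inhibitor Cdkn1b (-0.16 ± 0.07, or -0.043 relative to the all-gene median). L1cam and Ntrk2 were at -0.16 ± 0.11 and -0.11 ± 0.09. The median of the 7 was -0.11, as for all genes. Immediate early genes, a class to which Klf2, Klf4, Klf6 and Klf10 can also belong after stimulation of cultured cells, had 9 of 13 lower at an unadjusted p under 0.05 (17.0% of all genes), 6 with no overlap of the groups (2.03% of all genes), and a median of -0.53 (Arc -0.87 ± 0.14, Egr1 -0.79 ± 0.13, Btg2 -0.57 ± 0.09; limma adjusted p of 0.0715 to 0.0729). Klf2, at -0.53, lay at the median of that list, and Klf4, Klf6 and Klf10, at -0.18, 0.085 and -0.099, lay above it. Under median-ratio scaling the list's median was -0.42 and Klf2 was at -0.41.

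**Figure D4:**
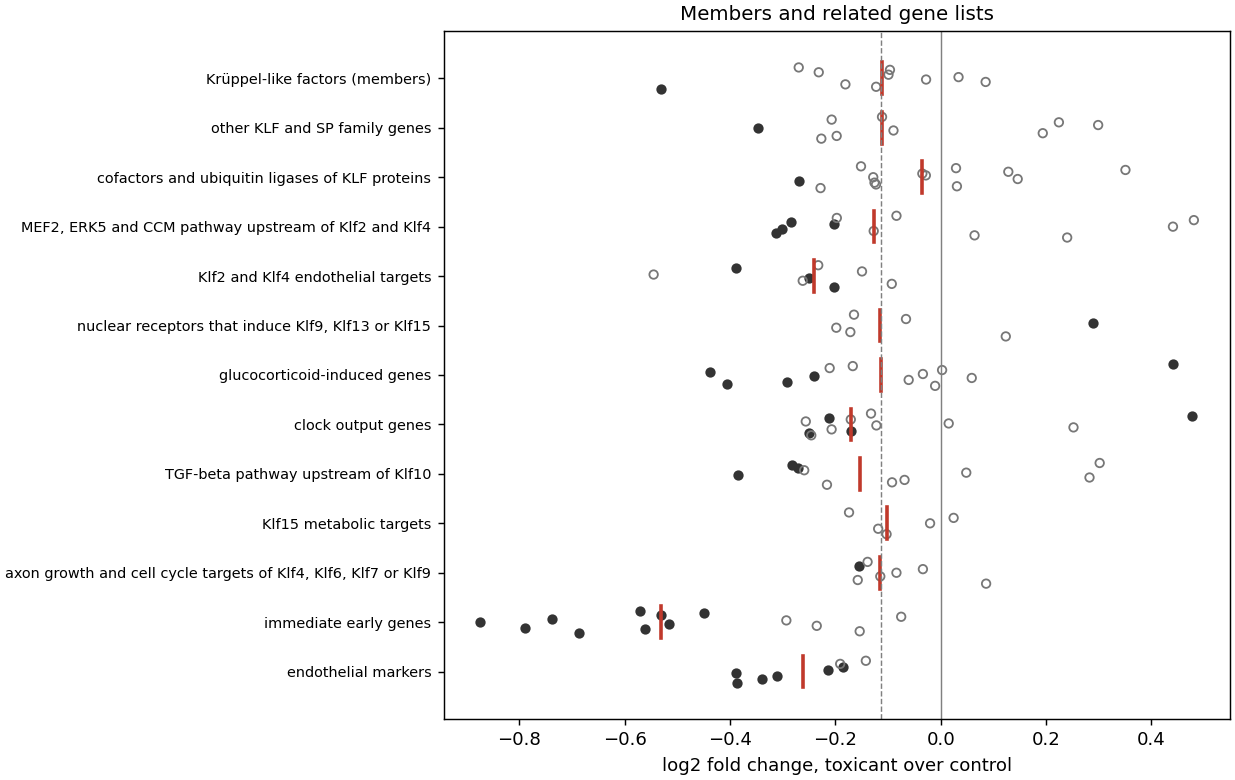
Log2 fold change, toxicant over control, of each tested gene in the family, the related lists and the endothelial markers (rows); filled points have an unadjusted p under 0.05, open points do not, red ticks are medians, and the dashed line is the all-gene median of -0.11. The family's median lies on that line, and the immediate early list has its median at -0.53.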

How the data were processed

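The authors deposited 1 RPKM value per gene and library, per the file headers. For the aligner, counting program, genome build, annotation and strandedness, nothing is given in the sources used here. Columns were matched to samples by the code in each sample's description. Exon lengths, GC content and positions came from GENCODE M21 (GRCm38) by Ensembl ID, which was found for 41675 of 41743 genes. RPKM multiplied by exon length gave whole multiples of 1 read, within 0.05 reads, for 98.3% to 98.4% of a library's values, which yielded the depth.

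The 13493 genes whose mean reached 0.5 RPKM were tested as log2(RPKM + 0.5) with limma 3.58.1 in R 4.3.3 (mean-variance trend, no covariate, two-sided, Benjamini-Hochberg over all genes). The fit was also run on simulated data with noise drawn independently for each gene. Such data hold no variation shared across the genes of a library, so the run cannot show how the fit handles it. The design states that the animals were different, and the labels name no batch. The members and the lists were chosen with earlier results of these data known. Named genes are the members, the 3 genes of smallest p in each list, and the 3 genes nearest in profile to each of the 2 members of smallest p (Klf2 and Klf13). Genes named outside that rule (Aqp1, Cldn5, Edn1, Klf1, Klf5, Klf12) were chosen after their values were seen. Alternatives were other pseudocounts (0.1, 1), filters (none, 1 RPKM), scalings, variance models, sample weights, covariates, a replicate block, voom, all 12 columns, leaving out each library and, chosen after seeing the data, removal of each library's GC trend.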

Additional observations from a re-analysis of the deposited data

Results flagged for a closer look

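Of 20 groups (10 members in 2 groups), 1 was flagged, where chance flags about 1 in 20. By Dixon's outlier test this was Klf10 in toxicant 1, at 6.70 RPKM. The next toxicant library was at 5.26 RPKM, a gap of 0.628 of the group's range. The highest control was at 6.12 RPKM. Without toxicant 1 the log2 fold change of Klf10 was -0.17, against -0.099 with it.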

How the results depend on the processing

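The count of genes called was 0 in 19 of 24 alternatives, but 1 with a pseudocount of 0.1, 1 with no filter, 9 with the 12 columns as deposited and 9553 with sample weights, which gave control 6 a weight of 12.5 and control 2 one of 0.132. Leaving out each library gave 0 to 4932, the highest without control 2. Members called numbered 6 with sample weights and 0 to 3 when a library was left out (3 without control 2: Klf2, Klf13 and Klf16). Members lower at an unadjusted p under 0.05 numbered 5 with sample weights (51.1% of all genes in that fit), 3 with the replicate block (Klf2, Klf13 and Klf16; 26.7% of all genes) and 1 to 4 when a library was left out (8.58% to 40.0% of all genes, both highest without control 2). Members higher numbered 1 with sample weights (22.1% of all genes). The members' median was 0.0051 under median-ratio scaling, 0.0078 when adjusted for the share of reads on genes and -0.17 to -0.086 when a library was left out. The replicate block leaves toxicant 5 without a partner, which drops it from the contrast. It called 0 genes and gave -0.57 for Klf2. The numbers were not treated as pairs, since the correlations of same-numbered libraries ran from -0.30 to 0.62 and 1 of 5 controls was most like its own number.

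Signs that turned were these (log2 fold changes). Median-ratio scaling gave 0.092 for Klf7, 0.023 for Klf10, 0.029 for Klf15, 0.0058 for Bcat2 and 0.015 for Ntrk2. Quantile normalization gave 0.022 for Klf7, 0.017 for Thra and 0.039 for Ntrk2. Adjusting for the share of reads on genes gave -0.0049 for Klf6, 0.030 for Klf10, 0.030 for Klf13, 0.084 for Klf15, 0.12 for Klf16, -0.034 for Wwp1, 0.13 for Thra, 0.038 for Kcnip2, 0.024 for Ntrk2, 0.022 for Smpd3 and 0.031 for Zfp251. GC trend removal, chosen after seeing the data, gave -0.033 for Klf6, 0.074 for Klf15, 0.036 for Prodh, 0.066 for Bcat2 and 0.0064 for L1cam. Klf7 was 0.043 with sample weights and 0.051 with voom, and Klf9 was -0.021 with 12 columns. Leaving out libraries gave -0.0036 to 0.15 for Klf6 (negative without control 1), -0.10 to 0.025 for Klf7 (positive without control 2 or 4-5) and -0.014 to 0.12 for Klf9 (negative without control 1). The causes were not tested. At 70 to 145 reads per library, counting error is largest for Klf4.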
